A study of Mus musculus with 12 samples.

Results

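The 42 genes described here encode the proteasome, its regulators and its assembly factors, and were measured in mouse PUER cells on 12 one-colour Agilent arrays. They were chosen by name: a probe was a member where its gene name on the array began with Psma, Psmb, Psmc, Psmd, Psme, Psmf or Psmg and a digit, leaving out the interferon-inducible Psmb8 and Psmb9. The rule took 64 of 41174 probes and used no measured value. Its 42 genes, of 27666 gene names on the array, held 39 that could be tested, of 15061 genes tested in all. Psmc3ip met the rule by its name but encodes a recombination cofactor and not a proteasome subunit, and counts are given with it and, where it was called, without it.

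PUER is a mouse myeloid line that lacks the transcription factor PU.1 and carries PU.1 fused to the estrogen receptor's ligand-binding domain. It grows in interleukin-3, and 4-hydroxytamoxifen (4-OHT) activates the fusion and starts maturation. The 4 groups of 3 arrays were cells with a control retroviral vector before 4-OHT, the same after 24 h in 2 nM 4-OHT, cells with a vector for a short hairpin RNA (shRNA) against Hnrnpa0 before 4-OHT, and these after the same exposure. All cells were sorted for the vector's GFP and expanded, and per the study's design text each vector's 3 experiments, called A, B and C, used different clones. Cells before 4-OHT are the only comparator, and no array is labelled as vehicle. The study asked whether knocking down Hnrnpa0, which lies in the region lost in del(5q) myeloid disease, changes myeloid fate.

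The proteasome degrades proteins that carry ubiquitin chains. Its 20S core is a barrel of alpha and beta rings, with the catalytic sites on beta subunits facing an inner chamber. The 19S cap binds ubiquitin chains, removes them and unfolds the substrate with a ring of ATPases, while other activators (PA28 and PA200) can dock on the core in its place. Dedicated chaperones assemble the core and the cap. In haematopoietic cells some catalytic beta subunits can be exchanged for inducible ones, which gives the immunoproteasome.

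Hnrnpa0 checked the labels. Its scaled log2 level was 3.11, 3.06 and 2.98 on the control arrays before 4-OHT, 2.60, 2.63 and 2.73 after it, 1.93, 1.57 and 1.00 on the shRNA arrays before 4-OHT, and 0.56, 0.65 and 0.46 after it. Both shRNA groups lay below both control groups with no overlap. The difference was -1.54 before 4-OHT (limma adjusted p = 0.0127) and -2.10 after (limma adjusted p = 0.00511), but with the slide as a fixed block the adjusted p was 0.114 and 0.0897. Of 8 myeloid markers, 6 were well above background on all 12 arrays, while all 4 fibroblast markers, 3 of 4 megakaryocyte markers (Gp9, Itga2b and Pf4), the T cell genes Cd3g and Cd8a, the B cell genes Ms4a1 and Pax5 and the erythroid gene Alas2 were above it on none. Cd3e and Hba-a1 were above background on all 12 arrays at low signal and Lck on 10, and the myeloid genes Csf1r and Ptprc on 6; their part in the results was not tested. The arrays lay on 3 slides of 4. Control arrays from before 4-OHT were all on slide 1, with 4-OHT array A of that vector, whose arrays B and C were on slide 2. On slide 2 were also shRNA arrays A and B from before 4-OHT, and all remaining shRNA arrays (C before, A to C after) were on slide 3. Within a treatment the vectors thus never met on a slide.

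Levels are log2 signal relative to the 75th percentile of each array, so 1 unit is a doubling against that percentile. Different probes are not compared with each other, except to place the scanner ceiling within an array. A change is the difference of group means with the standard error (SE) of the fit, and a gene is called where its adjusted p is under 0.05. The p-values measure the spread between these clones' arrays. In RNA from a whole culture, fewer cells of a type and less RNA per cell cannot be told apart. Both vector comparisons and both 4-OHT comparisons draw on the same 12 arrays, so their values are set side by side and are not independent of each other.

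Many of these transcripts were too bright for the scanner. Of the 39 tested genes, 19 were read by a probe that was saturated on at least 1 array, a share of 48.7% against 6.29% of all genes tested. Psma5, Psmb3, Psmb4 and Psmd3 were saturated on all 12 arrays. Their unscaled signal stayed between 55522 and 72871, so their scaled level, 4.55 to 5.92, moved inversely with the 75th percentile of the array, which ran from 1196 to 2583. Psmd3, for example, had its highest level, 5.54, on control array A before 4-OHT, the array with the lowest percentile, and its lowest, 4.55, on shRNA array B after 4-OHT, the array with the highest. The number of saturated member probes ranged from 6 to 20 per array, and all 20 probes that saturated anywhere did so on shRNA arrays A and B after 4-OHT. Changes are therefore counted over the 20 genes read by a probe saturated on no array, and no fold is given where all arrays of both groups were saturated.

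**Figure D1:**
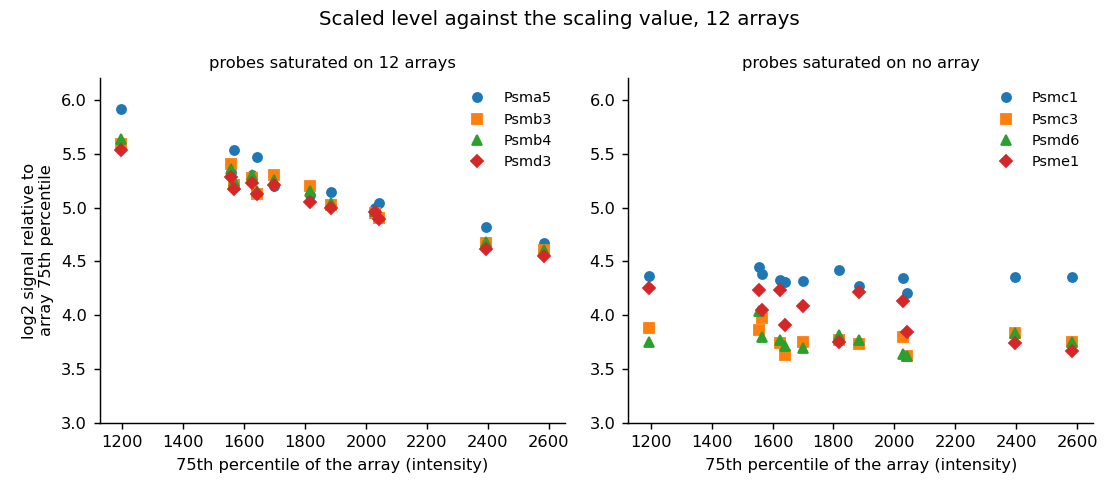
Scaled log2 level of 4 proteasome probes saturated on all 12 arrays (left) and of 4 saturated on none (right), against the 75th percentile of each array's intensity; each point is 1 array. The saturated probes fall along 1 line as the percentile rises from 1196 to 2583, and the unsaturated probes do not; levels of different probes are not compared.

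The genes behind the clearest changes were the alternative activators of the core. The stretches below are the first 30 of the 60 bases of their probes, shown because Psme2 was read by 2 probes of different range. Their positions are the array's own, on build mm7.
Psme3 probe, chr11:101431910-101431970, plus strand: cagaggctgctgctcctcgctgtgctttcc
Psme4 brightest probe, chr11:30832174-30832233, plus strand: aaagtctcagagttaacctagaacctgaca
Psme2 probe saturated on no array, chr14:50455438-50455635, minus strand: agagagtgaatgctgtcaagaccaaagtag
Psme2 probe saturated on 8 arrays, chr14:50454846-50454905, minus strand: ttatcatatcatcagcagcaacctagagaa
Both Psme2 probes lie at the Psme2 locus but carry the name Psme2b-ps on the array and list transcripts of both, so the gene and its near-identical copy cannot be told apart. The promoters of the 4 activator genes (250 bases before the RefSeq start, build GRCm38.p6) are printed in lower case with matches to the searched motifs in capitals. Those were CCGGAAG (an ETS family site, the family of PU.1), GAGGAAGT (a PU.1 site), CCAAT (the CCAAT box) and TGACNNNGC (the core of the antioxidant response element, through which Nrf1 and Nrf2 act on proteasome genes), each read on both strands. No motif's letters contain another's.
Psme3 promoter, chr11:101315963-101316212, plus strand: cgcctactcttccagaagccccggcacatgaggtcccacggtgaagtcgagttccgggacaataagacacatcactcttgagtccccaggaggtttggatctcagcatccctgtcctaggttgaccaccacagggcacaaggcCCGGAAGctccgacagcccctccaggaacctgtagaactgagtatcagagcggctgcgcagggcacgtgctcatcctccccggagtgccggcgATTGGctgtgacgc
Psme4 promoter, chr11:30771525-30771774, plus strand: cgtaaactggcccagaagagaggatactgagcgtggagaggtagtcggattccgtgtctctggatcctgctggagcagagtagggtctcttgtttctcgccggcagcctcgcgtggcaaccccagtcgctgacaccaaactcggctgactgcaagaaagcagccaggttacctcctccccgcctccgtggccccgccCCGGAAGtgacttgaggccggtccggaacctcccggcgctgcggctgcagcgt
Psme1 promoter, chr14:55578244-55578493, plus strand: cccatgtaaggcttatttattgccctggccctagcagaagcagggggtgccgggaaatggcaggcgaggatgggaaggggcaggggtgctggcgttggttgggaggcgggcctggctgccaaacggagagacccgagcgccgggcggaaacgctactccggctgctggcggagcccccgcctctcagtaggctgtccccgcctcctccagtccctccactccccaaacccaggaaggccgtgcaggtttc
Psme2 promoter, chr14:55591022-55591271, minus strand: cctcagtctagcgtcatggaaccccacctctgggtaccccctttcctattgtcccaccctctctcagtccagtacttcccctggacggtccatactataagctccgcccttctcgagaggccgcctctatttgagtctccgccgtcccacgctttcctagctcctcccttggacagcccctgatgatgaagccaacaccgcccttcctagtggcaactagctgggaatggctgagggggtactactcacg
Psme3 and Psme4 held CCGGAAG, beginning 107 and 53 bases before the start. Psme3 also held the reverse complement of CCAAT 14 bases before it. None of the 4 motifs occurred in the windows printed for Psme1 and Psme2. Among 38 windows of 35 member genes that the table holds, CCGGAAG occurred in 34.2%, against 6.91% of all 32851 windows and 8.98% of the windows of protein-coding genes. TGACNNNGC occurred in 13.2% of member windows (Psmb5, Psmb6, Psmc6, Psmd9 and Psmd12) against 10.2% of all, CCAAT in 34.2% against 33.8%, and GAGGAAGT in 7.89% (Psma6, Psmc1 and Psmc2) against 2.44%. A match is a description of these letters and not a bound site.

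Psme3, which encodes the PA28 gamma ring found in the nucleus, fell after 4-OHT in both vectors. On control arrays A, B and C its level was 3.43, 3.27 and 3.12 before 4-OHT and 2.73, 2.76 and 2.60 after it. On shRNA arrays it was 3.09, 3.22 and 3.19 before and 2.63, 2.53 and 2.70 after. All 6 arrays after 4-OHT lay below all 6 before it. The change was -0.58 (SE 0.09, limma adjusted p = 0.0004), 1.49-fold lower, in control cells and -0.55 (SE 0.09, limma adjusted p = 0.000655), 1.46-fold lower, in shRNA cells. Between arrays of 1 slide the difference was -0.54 on slide 1 (control) and -0.57 on slide 3 (shRNA). Slide 1 sets control array A after 4-OHT against the control arrays before it. Slide 3 sets the shRNA arrays after 4-OHT against array C before it. Each within-slide difference thus rests on 1 array on one side. For Psme3, as for Psme4 and Psmd1, the fixed slide block gave these same values and is no second check.

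Psme4 encodes PA200, a large single-chain activator, and it fell as well. On control arrays its level was 5.07, 4.94 and 5.05 before 4-OHT and 4.65, 4.63 and 4.56 after. On shRNA arrays it was 4.89, 4.96 and 5.06 before and 4.59, 4.54 and 4.64 after. No array after 4-OHT reached the lowest array before it. The change was -0.40 (SE 0.07, limma adjusted p = 0.00074), 1.32-fold lower, in control cells and -0.38 (SE 0.07, limma adjusted p = 0.0012), 1.30-fold lower, in shRNA cells. Its other 2 tested probes gave -0.41 and -0.40 in control cells, both past the threshold, and -0.51 (past it) and -0.23 (not past it) in shRNA cells. The last Psme4 probe was not well above background on any array. Within a slide the difference of the brightest probe was -0.36 on slide 1 and -0.47 on slide 3. That probe was marked as saturated on no array but came near the scanner ceiling. On shRNA arrays A and B after 4-OHT it read 4.59 and 4.54, beside 4.62 and 4.55 for the saturated Psmd3. On control array B and shRNA array A before 4-OHT it read 4.94 and 4.89, beside 4.99 and 4.96. The part of the ceiling in the Psme4 changes was not tested.

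The PA28 subunits of the cytoplasmic ring, Psme1 (alpha) and Psme2 (beta), did not move together. Psme1 read 4.25, 4.22 and 4.24 on control arrays before 4-OHT and 4.24, 3.91 and 3.85 after it, where array A, on the same slide as the arrays before 4-OHT, overlapped them and B and C, on another slide, did not. On shRNA arrays it read 4.13, 4.09 and 4.05 before and 3.74, 3.67 and 3.75 after, without overlap. Psme1 fell in shRNA cells, by 0.37 on the log2 scale (SE 0.09, limma adjusted p = 0.00918). In control cells the difference of -0.24 (SE 0.09, limma adjusted p = 0.0634) did not pass; it was 0.00 within slide 1, and without control array A after 4-OHT it was -0.36 with an adjusted p of 0.000743. The slide's part in the Psme1 value was not tested further. In shRNA cells the call was lost with normexp background correction (adjusted p = 0.0639).

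Psme2 rose on its unsaturated probe. That probe read 4.30, 4.17 and 4.22 on control arrays before 4-OHT and 4.86, 4.63 and 4.57 after, and 4.15, 4.17 and 4.15 on shRNA arrays before and 4.53, 4.43 and 4.38 after. In each vector all arrays after 4-OHT lay above all arrays before it. With this probe standing for the gene the change was 0.46 (SE 0.08, limma adjusted p = 0.00101), 1.38-fold higher, in control cells and 0.29 (SE 0.08, limma adjusted p = 0.0159), 1.22-fold higher, in shRNA cells. Within a slide the difference was 0.63 on slide 1 and 0.30 on slide 3. On shRNA arrays A and B after 4-OHT this probe, though not marked as saturated, also came near the ceiling, where the saturated Psmd3 read 4.62 and 4.55. What this did to the size of the shRNA change was not tested. The brighter probe, saturated on 8 arrays including all 6 after 4-OHT, gave 0.08 and -0.17, neither past the threshold.

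Psmf1 encodes PI31, a proteasome-binding protein first described as an inhibitor of the core. Its level on control arrays was 0.72, 0.47 and 0.53 before 4-OHT and 0.59, 0.55 and 0.50 after, and the change was -0.03 in control cells and 0.04 in shRNA cells, neither past the threshold. On this probe, the brightest of 3, the arrays before and after 4-OHT overlapped in both vectors. Another Psmf1 probe gave -0.30 in control and -0.12 in shRNA cells, and no Psmf1 probe was called in either.

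**Figure D2:**
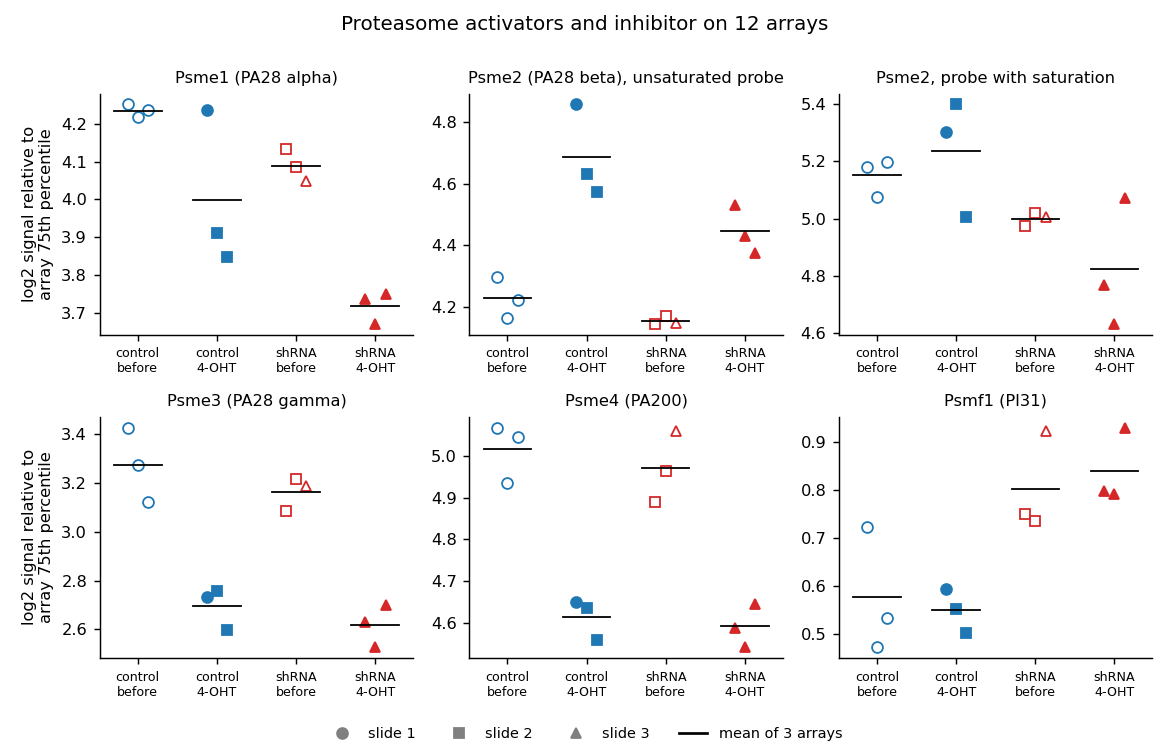
Level of the activator and inhibitor genes on each of the 12 arrays (log2 signal relative to the array's 75th percentile), by group, with the mean of 3 arrays as a bar and the slide as the shape of the point. Psme3 and Psme4 are lower on all arrays after 4-OHT, the unsaturated Psme2 probe is higher, and for Psme1 the control array on slide 1 after 4-OHT lies among the arrays before it.

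No gene of the catalytic or structural core that was read without saturation was called after 4-OHT. Psmb7, the trypsin-like subunit and the one standard catalytic subunit read without saturation, was at 3.16, 3.13 and 3.18 on control arrays before 4-OHT and 3.36, 3.13 and 3.14 after it. On shRNA arrays it was at 3.18, 3.35 and 3.53 before and 3.44, 3.41 and 3.50 after. The arrays overlapped in both vectors, with changes of 0.05 (SE 0.09) and 0.09 (SE 0.09). Psmb10, the inducible counterpart of Psmb7 in the immunoproteasome, changed by -0.08 (SE 0.11) and -0.16 (SE 0.11), not past the threshold (limma adjusted p = 0.603 and 0.268). Psma4 of the alpha ring gave 0.14 and 0.21, not past it, though its arrays before and after 4-OHT did not overlap in either vector. Psmb2, a structural beta subunit, gave 0.03 and 0.08 with overlap in both vectors, not past it.

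Psmb5, the chymotrypsin-like subunit and the target of bortezomib, and Psmb6, the caspase-like subunit, were saturated on 7 and 8 arrays, including all 3 shRNA arrays after 4-OHT. Their fitted changes were -0.15 and -0.09 in control cells and -0.34 and -0.24 in shRNA cells, none past the threshold. In shRNA cells the level after 4-OHT is only a lower bound for both genes. The same limit held for Psma2, Psma5, Psma6, Psma7, Psmb3, Psmb4 and Psmd3, saturated after 4-OHT on every array kept for them in both vectors (Psma7 had 2 control arrays there), and no fold is given for them in that state. Psma1 and Psmb1, saturated only on shRNA arrays A and B after 4-OHT, gave 0.17 and 0.03 in control cells, where no array was saturated; neither passed.

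The ATPase genes of the 19S base that were read without saturation gave changes near 0. Psmc1, Psmc3, Psmc4 and Psmc5 were saturated nowhere, and their changes ran from -0.08 to 0.07 in control cells and from -0.05 to 0.03 in shRNA cells, with none past the threshold. Psmc1, one of the ATPases that open the gate of the core, read 4.36, 4.27 and 4.33 on control arrays before 4-OHT and 4.45, 4.31 and 4.21 after it. Its arrays overlapped in both vectors, and its change was 0.00 (SE 0.07) in control cells. Psmc4 and Psmc5 each lacked 2 arrays, where the spot was marked as an outlier. The other ATPases, Psmc2 and Psmc6, were read by a brighter probe with saturation. Their unsaturated probes gave 0.12 and -0.09 in control cells and -0.19 and -0.08 in shRNA cells, none past the threshold.

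Psmd1, the largest scaffold protein of the 19S base, was the only one of the 20 unsaturated genes to rise in either vector. It read 2.89, 2.83 and 2.94 on control arrays before 4-OHT and 3.09, 3.13 and 3.20 after it, and 3.05, 3.10 and 3.44 on shRNA arrays before and 3.46, 3.50 and 3.66 after. The shRNA array at 3.44, C, shared slide 3 with the arrays after 4-OHT, and no arrays overlapped. The rise was 0.34 in shRNA cells (SE 0.10, limma adjusted p = 0.0226), 0.10 within slide 3, and its adjusted p was 0.46 with the slide as a fixed block. The call was also lost without shRNA array A or B before 4-OHT, or C after it. Normexp (adjusted p = 0.142), no filter on dim probes and the slide as a random block ended it too. In control cells the change of 0.25 (SE 0.10, limma adjusted p = 0.075) did not pass. Psmd2, the other scaffold of the base, gave 0.25 and 0.24 on its unsaturated probe, with adjusted p of 0.0533 and 0.0644. Psmd4, a ubiquitin receptor, gave -0.09 and -0.02 on its brighter probe, saturated on 2 arrays. Its dimmer, unsaturated probe gave -0.19, without overlap of the arrays, in control cells and 0.03, with overlap, in shRNA cells. Neither value passed the threshold.

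Of the 3 members that are chaperones of 19S base assembly, 2 fell in control cells. Psmd5 read 3.42, 3.28 and 3.38 on control arrays before 4-OHT and 3.24, 2.93 and 2.92 after, and 3.25, 3.25 and 3.21 on shRNA arrays before and 3.04, 3.03 and 2.99 after. All arrays after 4-OHT lay below those before it in the same vector, with control array A closest. The change was -0.33 in control cells (SE 0.09, limma adjusted p = 0.0108), and -0.21 in shRNA cells (SE 0.09, limma adjusted p = 0.0754) did not pass. The control call was lost with the slide as a fixed block, where the value was -0.12 (adjusted p = 0.243), and with normexp (adjusted p = 0.062).

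Psmd9 fell in both vectors, from a mean of 1.44 ± 0.06 (SD, n = 3) to 1.18 ± 0.16 in control cells and from 1.38 ± 0.05 to 1.13 ± 0.01 in shRNA cells. On control arrays after 4-OHT it read 1.36, 1.13 and 1.06, so array A was again nearest the arrays before 4-OHT, which read 1.50, 1.39 and 1.44. The changes were -0.26 (SE 0.08, limma adjusted p = 0.0217) and -0.25 (SE 0.08, limma adjusted p = 0.0312). Its second probe gave -0.26, past the threshold, and -0.19, not past it. These calls were the least stable of those that fell: 9 of 24 alternatives lost the control call, with an adjusted p of up to 0.418, and 10 lost the shRNA call, with up to 0.181. They included leaving out control array A or C before 4-OHT or B or C after it, and leaving out any of the 6 shRNA arrays. Psmd10 (gankyrin), the last of the 3, gave 0.01 and -0.13, neither past the threshold.

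Among lid genes, Psmd7, the partner of the deubiquitinase Psmd14, fell in shRNA cells. It read 3.60, 3.55 and 3.51 before 4-OHT and 3.39, 3.33 and 3.26 after, without overlap, a change of -0.23 (SE 0.07, limma adjusted p = 0.0226). In control cells -0.16 (SE 0.07, limma adjusted p = 0.0801) did not pass. The shRNA call was lost without shRNA array A or B before 4-OHT or B or C after it. It was also lost with the slide as a fixed block (adjusted p = 0.117), quantile normalization (0.103), normexp (0.422) and no filter on dim probes. A dim further Psmd7 probe gave 0.34 in shRNA cells, not past the threshold. Psmd6 and Psmd8 gave 0.03 and -0.17 in control cells and 0.09 and -0.13 in shRNA cells, none past it. Psmd14, which cleaves ubiquitin chains from substrates, gave -0.01 and 0.07 on a probe saturated on 2 arrays. Psmc3ip, the gene that is no subunit, fell by 0.41 on the log2 scale in control cells (SE 0.10, limma adjusted p = 0.00604), a call lost with the slide as a fixed block (adjusted p = 0.139), and gave -0.23 in shRNA cells, not past the threshold.

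**Figure D3:**
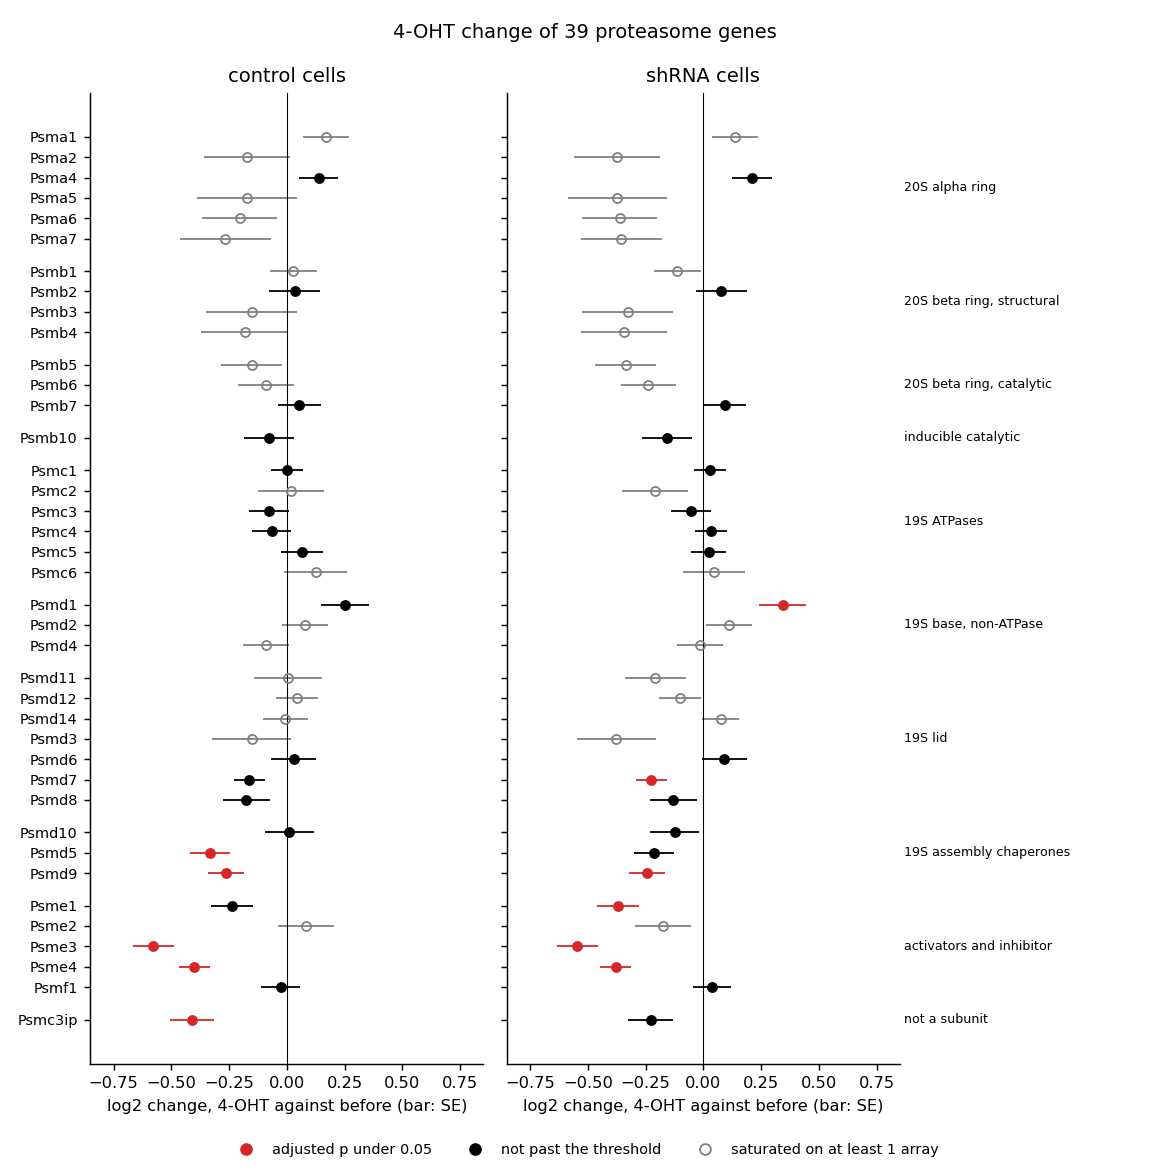
Change of 39 proteasome genes from before to after 4-OHT (log2, with the SE of the fit as a bar) in control and shRNA cells, grouped by role; red marks an adjusted p under 0.05, black a gene not past it and open grey a gene read by a probe saturated on at least 1 array. Psme3 stands lowest in both panels, with Psmc3ip (-0.41) and Psme4 (-0.40) next in control cells, and the open grey symbols of shRNA cells lie mostly left of 0.

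Counted over the 20 unsaturated genes, 0 were higher and 5 lower after 4-OHT in control cells, or 4 lower without Psmc3ip, and 1 was higher and 5 lower in shRNA cells. Among all unsaturated genes tested, 18.2% were higher and 24.1% lower in control cells and 17.3% higher and 22.5% lower in shRNA cells, so the share of members that fell, 5 of 20, was near that of all genes. Their sizes were small: the median absolute change was 0.11 in control cells and 0.14 in shRNA cells, against 0.28 and 0.26 over all unsaturated genes. The median signed change was -0.07 and -0.09, against -0.05 and -0.05. In control cells 13 of the 20 changed by less than 0.2, a share of 65.0% against 38.8%. In shRNA cells 11 of the 20 did, a share of 55.0% against 40.3%. Without control array A after 4-OHT the control count that fell was 9, with Psmb10, Psmd7, Psmd8 and Psme1 added. With the slide as a fixed block it was 2, Psme3 and Psme4. None of the 19 genes with saturation passed the threshold in either vector. Psme3 and Psme4 kept their direction and their call in both vectors under all 24 alternatives run, with adjusted p from 0.000209 to 0.0135 for Psme3 in control cells. For Psme4, preferring unsaturated probes kept the same brightest probe, so its nearness to the ceiling was not tested. A dimmer Psme4 probe gave -0.23 in shRNA cells and was not called.

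Before 4-OHT the vectors gave no proteasome gene past the threshold. Of the 20 unsaturated genes limma called 0 higher and 0 lower, and 3 had an unadjusted p under 0.05. Among all unsaturated genes 0.149% were higher and 0.248% lower. The 3 largest differences whose arrays did not overlap were Psmd1 at 0.31 (SE 0.10, limma adjusted p = 0.134), Psmd10 at -0.27 (SE 0.10, limma adjusted p = 0.175) and Psmf1 at 0.23 (SE 0.08, limma adjusted p = 0.159).

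After 4-OHT the same 3 genes passed the threshold. Psmd1 was higher in shRNA cells (0.40, SE 0.10, limma adjusted p = 0.0303), with 3.46, 3.50 and 3.66 on shRNA arrays against 3.09, 3.13 and 3.20 on control arrays. Psmf1 was higher too (0.29, SE 0.08, limma adjusted p = 0.0415), with 0.80, 0.79 and 0.93 against 0.59, 0.55 and 0.50. Psmd10 was lower (-0.40, SE 0.10, limma adjusted p = 0.0308), with 2.16, 2.04 and 1.91 against 2.65, 2.41 and 2.26. No arrays of the groups overlapped for these genes. The 2 genes higher and 1 lower of 20 stand beside 8.36% higher and 8.87% lower among all unsaturated genes. That share itself rests on the fit without the slide: of all genes tested 2512 were called, 1 with the slide as a fixed block and 0 as a random block, and 334 without control array B after 4-OHT. With the slide as a fixed block none of the 3 passed: the differences were 0.01, 0.13 and -0.22, with adjusted p of 0.994, 0.903 and 0.856, and none passed with the slide as a random block. Since the vectors shared no slide within a treatment, vector and slide cannot be told apart in the values without a block. Leaving out control array A or B or shRNA array B or C after 4-OHT also ended all 3 calls. So did normexp and no filter on dim probes, and quantile normalization ended those of Psmd1 and Psmf1. The Psmf1 call was also lost without control array C or shRNA array A after 4-OHT, or control array C or shRNA array B before. A second Psmf1 probe gave 0.29 and was called when each probe was fitted on its own, while the last of its 3 probes gave -0.08 and was not called.

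**Figure D4:**
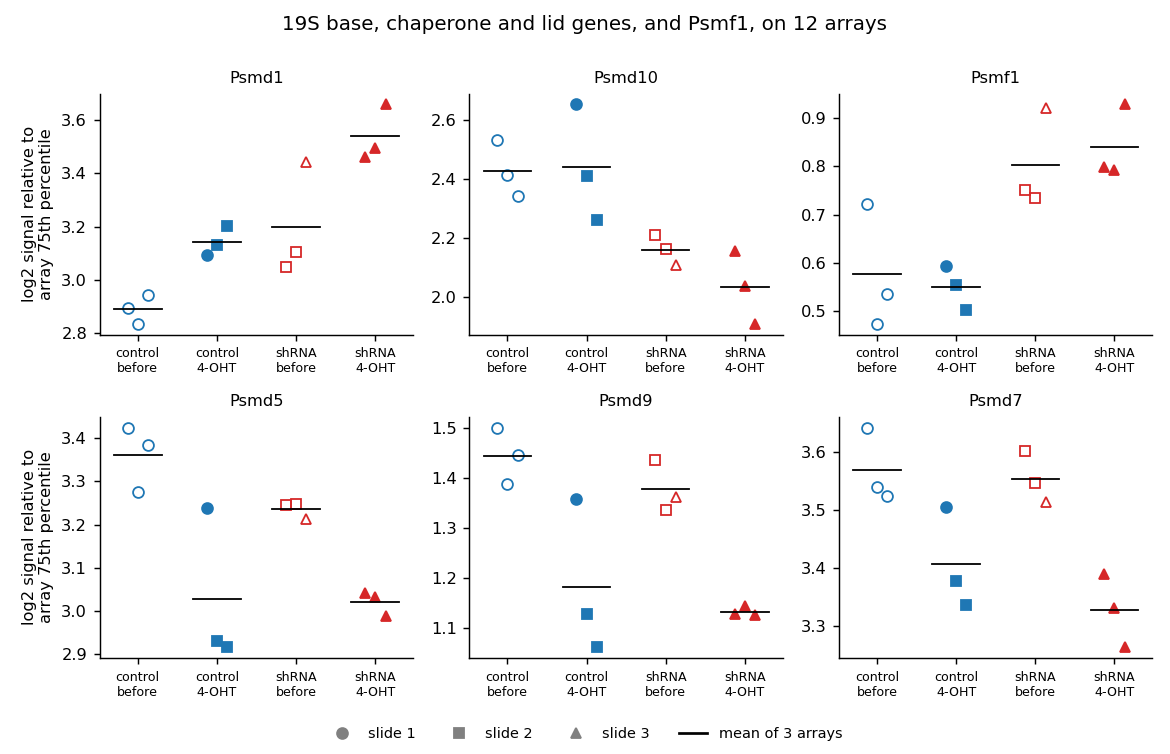
Level of 6 proteasome genes on each of the 12 arrays (log2 signal relative to the array's 75th percentile), by group, with the mean of 3 arrays as a bar and the slide as the shape of the point. Psmd1 and Psmf1 are higher and Psmd10 lower in shRNA than in control cells after 4-OHT; for Psmd1 and Psmf1, shRNA array C before 4-OHT, on slide 3, lies with or near the arrays after it.

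Among the genes with saturation, Psmb1, Psmb6, Psmd12 and Psme2 were past the threshold as lower in shRNA than in control cells after 4-OHT. For Psme2 all 6 arrays compared were saturated, so its saturated probe gives no difference. Psmb6 was saturated on all 3 shRNA arrays and 2 of the 3 control arrays, and its size is not given either. Psmb1 and Psmd12 were saturated on shRNA arrays A and B and on no control array, and their fitted differences of -0.33 and -0.33 rest on shRNA levels that are lower bounds there. For Psmd12, a lid subunit, the probe saturated nowhere gave -0.36 (SE 0.11, limma adjusted p = 0.0461), and the value of the brighter probe turned to 0.022 with quantile normalization. The call of the brighter Psmd12 probe was lost in 12 others of 24 alternatives, with either slide block among them. For Psme2 the unsaturated probe, near the ceiling on shRNA arrays A and B, gave -0.24 (limma adjusted p = 0.0639). Where unsaturated probes stood in for saturated ones, 26 genes could be counted. Psmd1, Psmd4 and Psmf1 were higher and Psmc2, Psmd10 and Psmd12 lower. Among all genes whose brightest probe was unsaturated, 8.36% were higher and 8.87% lower. Vector and slide cannot be told apart in these values either. The Psmc2 probe was dim, with mean levels of -2.23 on control and -3.04 on shRNA arrays after 4-OHT (limma adjusted p = 0.0499). A dimmer Psme4 probe was higher in shRNA cells after 4-OHT (0.46, SE 0.10, limma adjusted p = 0.0191 over probes). The brightest, near the ceiling on shRNA arrays A and B, gave -0.02.

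The difference between the 4-OHT responses of shRNA and control cells was tested directly. Of the 20 unsaturated genes limma called 0 higher and 0 lower, 0 had an unadjusted p under 0.05, and the values ran from -0.14 to 0.18. Over all unsaturated genes 0% were called higher and 0% lower, and 763 of 14114 had an unadjusted p under 0.05. For Psme3 the difference was 0.03 and for Psme4 0.02, and for Psme1, called in shRNA cells alone, it was -0.13 (limma adjusted p = 0.957). None of the members called in 1 vector and not the other was thus shown to differ between them.

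Genes of the pathway outside the Psm names were read from lists of their partners, whose counts are over unsaturated genes and stand beside the same shares of all genes (18.2% higher and 24.1% lower in control cells, 17.3% and 22.5% in shRNA cells). With so few genes a list, nothing particular to a list is read from its count. The core's assembly chaperones Psmg1, Psmg2 and Psmg3 carry older names on the array and so were outside the rule; they gave -0.04, 0.15 and 0.13 in control cells and -0.11, 0.23 and 0.02 in shRNA cells, none past the threshold. Of 8 unsaturated proteasome-bound and assembly proteins, 0 rose and 3 fell in control cells and 1 rose and 2 fell in shRNA cells. The largest was Zfand5, a zinc-finger activator of the proteasome, which read 2.32 and 2.52 on control arrays A and B before 4-OHT (C was an outlier spot) and 1.31, 1.24 and 1.30 after. It fell by 1.14 in control and 0.97 in shRNA cells on the log2 scale (SE 0.08 and 0.07, limma adjusted p = 3.27e-06 and 5.06e-06), with no overlap. Ecpas, a proteasome adaptor, fell by 0.30 in each vector, Akirin2, which carries proteasomes into the nucleus, fell by 0.28 in control cells, and Ube3c, a ubiquitin ligase bound to the cap, rose by 0.50 in shRNA cells. Pomp and Sem1, the core's maturation factor and a small lid subunit, were saturated on all 12 arrays.

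Of 7 genes of the Nrf1 and Nrf2 axis, which drives proteasome genes when proteasome activity is short, 2 rose and 3 fell in control cells (all genes 18.2% and 24.1%) and 0 rose and 3 fell in shRNA cells (17.3% and 22.5%). The 3 that fell in each vector were the small Maf partners. Maff read 0.83, 0.93 and 0.62 on control arrays before 4-OHT and -1.25, -1.29 and -1.18 after, and it changed by -2.03 in control and -2.28 in shRNA cells (SE 0.14 in both, limma adjusted p = 8.52e-07 and 4.25e-07). Mafg changed by -0.71 and -0.76 and Mafk by -0.32 and -0.31. Nfe2l1 (Nrf1) at -0.11 and -0.09 and Nfe2l2 (Nrf2) at -0.19 and -0.20 did not pass the threshold, while in control cells Ngly1, which processes Nrf1, rose by 0.35 and Keap1, which restrains Nrf2, by 0.17. Small Maf proteins also pair with factors that act on other genes.

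Shuttle receptors bring ubiquitinated proteins to the proteasome. Of these, Ddi2, a protease that also cleaves Nrf1, rose in both (0.36 and 0.32), Ubqln4 rose in shRNA cells (0.32) and Ubqln1 fell in control cells by 0.22. Uba6, a ubiquitin-activating enzyme, rose in both (0.45 and 0.51), and the other, Uba1, did not pass (0.07 and 0.18). The ubiquitin genes Ubb and Rps27a were saturated on all 12 arrays. Of 4 genes of p97 and its cofactors, which extract proteins for degradation, Nsfl1c rose (0.27) and Nploc4 fell by 0.33 in control cells, and none passed in shRNA cells. Of 4 genes of the interferon-inducible list, Psmb8 alone passed, with -0.32 and -0.39, and Psmb9 gave -0.09 and -0.13. The called changes named from these lists kept their sign under quantile normalization, normexp and median scaling. In control cells normexp ended the calls of Keap1, Mafk, Ngly1, Psmb8, Nsfl1c and Ubqln1, quantile normalization those of Keap1 and Akirin2, median scaling that of Akirin2, and the slide as a fixed block those of Keap1, Ngly1, Psmb8, Nploc4, Akirin2 and Ecpas. In shRNA cells normexp ended those of Psmb8 (adjusted p = 0.0584) and Ecpas (0.109), quantile normalization that of Ecpas (0.0594), and the block those of Psmb8, Ube3c and Ubqln4.

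Psma3, Psma8 and Psmd13 were members that could not be tested, since the scanner software marked their spot as an outlier on 12, 10 and 6 arrays.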

How the data were processed

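Total RNA from 12 PUER cultures was labelled with Cy3. Per the file headers, the authors read the arrays (design 014868) with Agilent Feature Extraction 9.5.3.1, given as 9.5 in the submitters' processing notes. The deposited values are linear intensity per spot, detrended and background-subtracted, not scaled across arrays; a deposited table with these intensity values, rounded, was used as an alternative. Control spots and outlier marks were left out, saturated spots were kept, and the 75th percentile of an array was subtracted from its values on the log2 scale. A gene was its probe of highest mean, well above background on at least 3 of 12 arrays and present on at least 2 per group. Between 50.3% and 55.7% of spots per array were well above background; the number of arrays limits the precision.

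With limma 3.58.1 in R 4.3.3, 4 group means and 5 contrasts of them were estimated from all 12 arrays, and p-values were adjusted by Benjamini-Hochberg over 15061 genes. The fit was tested on simulated data. Python 3.11.15, pandas 2.3.3, numpy 2.4.6 and matplotlib 3.10.9 served for tables and figures. Promoters are from RefSeq (GRCm38.p6).

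The members and lists were chosen with earlier results of these data known. Named genes were, per 4-OHT comparison and role, up to 4 members of largest change past the threshold; for vector comparisons all members past it, or the 3 largest that did not overlap; the catalytic, activator and selected 19S genes and the Psmg genes always; up to 3 called genes per pathway list; and members saturated in a whole group. Pathway and probe values beyond these, Psmc1, Psmb2, Psma4, Psmd2, Psmd6 and Psmd8 among them, were named after their values were seen. Some marker and pathway genes are not reported here.

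Alternatives were quantile normalization, normexp, 2 other filters, every probe, unsaturated probes first, the rounded values, slide as a fixed or random block, the replicate letter as a block and leaving out each array; keeping outlier spots and scaling to the median of probes measured on all arrays were added after seeing the data.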

Additional observations from a re-analysis of the deposited data

How the results depend on the processing

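Counts below are of unsaturated proteasome genes. In control cells the 0 higher after 4-OHT became 1 with every probe, unsaturated probes first, a fixed slide block (Psmd6), the replicate block (Psmd1) and median scaling (Psmd1), and 0 to 1 leaving out an array. The 5 lower became 8 with every probe (8 probes of the same 5 genes), 2 with the fixed slide block, 4 with normexp (without Psmd5) and with quantile normalization, no filter, the random slide block and median scaling (each without Psmd9), 6 with the replicate block, and 4 to 9 leaving out an array. In shRNA cells the 1 higher became 0 with normexp, no filter and either slide block, 2 with every probe or unsaturated probes first, and 0 to 2 leaving out an array. The 5 lower became 3 with quantile normalization or no filter, 2 with normexp, and 3 to 7 leaving out an array.

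Between vectors after 4-OHT the 2 higher became 0 with quantile normalization, normexp, no filter and either slide block, 5 with every probe, and 0 to 3 leaving out an array. The 1 lower became 0 with normexp, no filter and either slide block, 2 with the filter for all 12 arrays, 3 with every probe or unsaturated probes first, and 0 to 2 leaving out an array. Before 4-OHT and for the difference of responses every count stayed 0. The value for Psme2 in shRNA cells turned to 0.29 with the unsaturated probe, and for Psmd12 between vectors after 4-OHT to 0.022 with quantile normalization. The cause of these moves was not tested, beyond the fewer arrays or other probes themselves.

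Replicate letters did not pair the arrays: deviations of same-letter arrays within a vector correlated between -0.036 and 0.26, so the block shares only a letter. Scanner saturation limits what can be said of the core: 19 of 39 genes met it, and a change above the ceiling is not visible.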
